A study of Mus musculus with 20 samples.

Results

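Pressure overload was compared with sham operation in hearts with an inducible myocyte deletion of Wnt5a, 4 weeks after surgery. CKO hearts 3 and 41, taken 4 weeks after TAC (transverse aortic constriction, an operation that narrows the aortic arch), were set against CKO hearts 4 and 8, taken 4 weeks after sham surgery. The 4 hearts were chosen by their labels from 20 in the series, each number is the one in the heart's label, and 12589 of 23284 genes, those averaging 0.5 FPKM or more across all 20, were tested. All mice were C57BL/6. CKO mice carried floxed Wnt5a together with the labelled transgene Myh6-Cre/Esr 1, a Cre recombinase fused to part of the oestrogen receptor under a cardiac myocyte promoter, so that floxed sequence is removed after tamoxifen. The label of controls gives the floxed Wnt5a allele without the transgene. No group with the transgene and without the floxed allele was analysed here, and Wnt5a in cells that do not use the Myh6 promoter was not targeted. For comparison, 2 further pairs of groups were used: control hearts 1 and 2 after TAC with control hearts 6 and 7 after sham, all at 4 weeks, and CKO hearts 13 and 31 after TAC with CKO hearts 14 and 15 after sham, both at 2 weeks. The labels call each library a heart and give neither age nor sex. The p-values below use the spread between hearts of the same group, estimated over all 20 hearts in 10 groups. These include control hearts at 2 weeks and hearts of both genotypes at the end of tamoxifen treatment.

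Wnt5a is a secreted ligand of the non-canonical Wnt pathways, and the title of the series joins it with YAP, a co-activator that binds DNA through TEAD factors, in the mechanical response of cardiac myocytes. A heart under pressure overload typically turns on a foetal and stretch-responsive programme (natriuretic peptides, skeletal actin, Z-disc proteins). It lays down extracellular matrix made by activated fibroblasts, and it lowers genes of fatty acid oxidation and repolarising ion channels.

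The start regions of 3 genes are shown first: Ankrd1, which passed the test below, and Acta1, which did not, are genes of the overload programme, and Igtp, which did not pass either, was far higher in heart 41 than in any other heart. Each window runs from 250 bases before to 50 bases after RefSeq's start of the gene, 5′ to 3′ on the gene's own strand, in RefSeq's coordinates for GRCm38.p6 (mm10).
Ankrd1, chr19:36119795-36120094, minus strand: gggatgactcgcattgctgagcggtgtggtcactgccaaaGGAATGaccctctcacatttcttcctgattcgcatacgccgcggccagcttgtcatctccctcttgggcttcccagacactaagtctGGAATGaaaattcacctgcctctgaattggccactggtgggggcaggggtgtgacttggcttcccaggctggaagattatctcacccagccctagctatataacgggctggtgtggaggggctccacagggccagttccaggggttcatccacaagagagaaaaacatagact
Acta1, chr8:123894726-123895025, minus strand: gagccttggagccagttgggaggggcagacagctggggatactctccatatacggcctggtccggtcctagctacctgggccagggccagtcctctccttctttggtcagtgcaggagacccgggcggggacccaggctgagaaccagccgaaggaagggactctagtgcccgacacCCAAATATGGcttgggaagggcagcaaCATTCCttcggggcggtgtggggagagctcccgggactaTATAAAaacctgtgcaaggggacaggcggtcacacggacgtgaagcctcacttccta
Igtp, chr11:58199306-58199605, plus strand: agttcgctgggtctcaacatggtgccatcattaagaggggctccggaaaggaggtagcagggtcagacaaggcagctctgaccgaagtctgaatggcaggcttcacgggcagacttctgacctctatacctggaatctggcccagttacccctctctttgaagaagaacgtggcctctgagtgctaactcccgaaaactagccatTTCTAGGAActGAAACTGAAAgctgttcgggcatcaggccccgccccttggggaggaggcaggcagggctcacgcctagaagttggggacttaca

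Capitals in the Ankrd1 window mark GGAATG, the reverse complement of CATTCC, the core letters that TEAD factors are known to bind. They begin 210 and 123 bases before RefSeq's start. In the Acta1 window the capitals mark a CArG box, the known target of serum response factor, 73 bases before RefSeq's start, then CATTCC at 46 bases and TATAAA at 7 bases. In the Igtp window they mark TTCTAGGAA, of the form TTCNNNGAA, known as a gamma-activated site, at 45 bases before RefSeq's start, and GAAACTGAAA, of the form GAAANNGAAA that interferon regulatory factors are known to bind, at 34 bases. On either strand CATTCC was in 14.7% of 32851 such windows, TTCNNNGAA in 8.30%, GAAANNGAAA in 3.44% and a CArG box in 1.63%. RefSeq's starts differ from those of the GENCODE gene spans given with the values below: the Ankrd1 window lies wholly inside its GENCODE span, and RefSeq's start of Acta1 lies upstream of the GENCODE one. The distances therefore hold for RefSeq's starts only. These are letter matches and were not tested as binding sites.

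The authors deposited each gene's level as FPKM, a fragment count scaled to transcript length and library size. The labelled deletion was examined in the 8 hearts of 4 weeks. Wnt5a (chromosome 14, 28504750 to 28527448, plus strand) was 1.57 and 0.853 FPKM in CKO hearts after TAC and 2.14 and 2.02 FPKM in CKO hearts after sham, against 2.06 and 1.68 FPKM in control hearts after TAC and 3.87 and 4.11 FPKM in control hearts after sham. CKO hearts were below control hearts after each operation, as the labels say. Esr1, part of which is in the transgene, was 529 and 752 FPKM in CKO hearts after TAC and 837 and 931 FPKM in CKO hearts after sham, and at most 0.266 FPKM in the 4 control hearts. Within CKO hearts the log2 difference of Wnt5a between TAC and sham was -0.62 ± 0.21 (SE, limma adjusted p = 0.22). In bulk tissue, fewer cells of a type and less RNA per cell cannot be told apart. The relative depth of the 20 libraries, read from the steps between low values, ranged 1.37-fold.

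Heart 41 stood apart from its partner and from the rest of the series before any comparison was made. Its correlation with heart 3, over log2(FPKM + 0.5) of 12589 genes, was 0.963, the lowest of the 10 pairs of hearts that share a group, and 386 genes lay more than 1 log2 unit apart, against 175 to 262 in the other 9 pairs. Many of the genes with the largest gaps between the 2 hearts are known to be induced by interferon-gamma, and haemoglobin genes were also among them. Igtp, an immunity-related GTPase, was 9.89 FPKM in heart 3 and 623 FPKM in heart 41, against 16.9 and 14.2 FPKM in sham hearts 4 and 8, and it ranged from 7.77 to 31.2 FPKM in the 19 hearts other than heart 41. Iigp1, of the same family, was 15.5 and 473 FPKM after TAC (hearts 3 and 41), against 23.4 and 16.1 FPKM after sham. The guanylate-binding protein gene Gbp10 was 0.581 and 20.8 FPKM after TAC, against 0.589 and 0.159 FPKM after sham. In each of these genes heart 41 was above every other heart, while heart 3 was not above the higher sham heart.

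Of the 37 measured genes of an interferon-response list, 34 had their highest value of all 20 hearts in heart 41, and so had all 13 measured genes of antigen presentation. B2m, the light chain of MHC class I, was 479 and 3234 FPKM after TAC, against 591 and 454 FPKM after sham. Cd74, the invariant chain of MHC class II, was 62.2 and 541 FPKM after TAC, against 111 and 83.7 FPKM after sham. Ifng itself was at 0 FPKM in all 4 hearts. All 3 measured markers of T and NK cells (Nkg7, Gzma and Ccl5) were highest of 20 hearts in heart 41, and the summed level of 12 listed markers in the table was 4.86 and 13.7 FPKM after TAC, against 4.74 and 2.49 FPKM after sham. That of 23 macrophage markers was 577 and 902 FPKM after TAC, against 856 and 629 FPKM after sham. The 3 measured T and NK cell markers were thus at their highest in the same heart as the interferon genes. The rest of the 12, Cd3e, Cd4 and Cd8a among them, averaged too little to be tested, and 2 of the 12 were at 0 in heart 41. Macrophage markers in heart 41 were a little above those of sham heart 4. Erythroid genes went the other way: the summed level of 8 listed markers in the table was 1213 and 123 FPKM after TAC, against 1463 and 1484 FPKM after sham, and all 5 measured members were lowest of 20 hearts in heart 41. Hba-a1, a haemoglobin chain, was 934 and 90.6 FPKM after TAC, against 1114 and 1128 FPKM after sham. Heart 3 was itself low in part of these genes. It was the lowest of 20 hearts in 4 of the 37 interferon and 4 of the 13 antigen presentation genes, and the medians of those lists in heart 3 were -0.32 and -0.47 log2 units from the sham mean. The part of these genes and cell types in the other results was not tested. The medians of the interferon and antigen presentation lists are given below with and without heart 41.

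**Figure D1:**
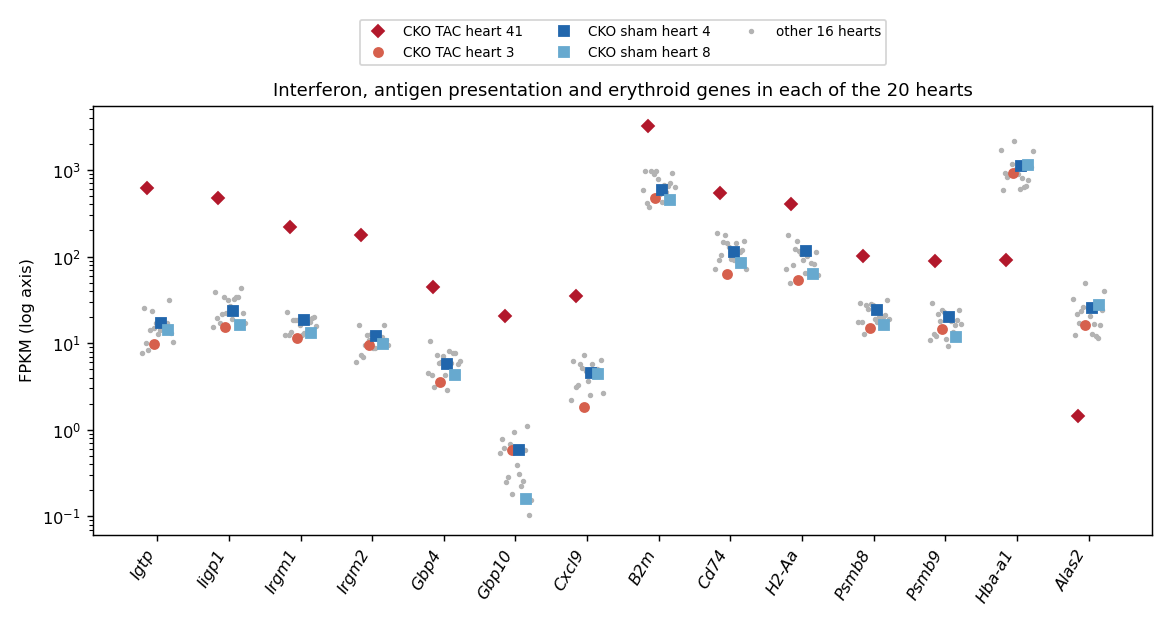
FPKM on a log axis of 12 interferon and antigen presentation genes (Igtp to Psmb9) and 2 erythroid genes (Hba-a1, Alas2), one point per heart: the 4 CKO hearts at 4 weeks in colour, the other 16 hearts in grey. Heart 41 lies above all others in the first 12 genes (Igtp 623 FPKM, next highest heart 31.2 FPKM) and below all others in the last 2 (Hba-a1 90.6 FPKM, next lowest heart 588 FPKM).

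Markers of other cell types were summed per heart. The summed level of 14 cardiomyocyte markers was 79998 and 77476 FPKM after TAC, against 75533 and 79017 FPKM after sham. The atrial gene Myl7 was 1.16 and 0 FPKM after TAC and 0 FPKM in both sham hearts, and the summed level of 12 atrial markers was 285 and 250.4 FPKM after TAC, against 256 and 234 FPKM after sham. Myl7 reached 10 FPKM in 5 of the other 16 hearts, CKO sham heart 14 at 2 weeks among them. Neutrophil markers differed between the sham hearts: the summed level of 11 in the table was 91.1 and 40.4 FPKM after TAC, against 193 and 15.2 FPKM after sham in hearts 4 and 8. Over the 20 hearts this sum ranged from 2.67 to 283 FPKM, with a median of 49.2 FPKM. In heart 4 most of it was S100a8 (82.0 FPKM) and S100a9 (91.9 FPKM). Thymus and lung markers were at 0 in all 4 hearts for 7 of 9 genes.

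Between TAC and sham in CKO hearts 33 genes passed the test (0.262% of the 12589, limma adjusted p under 0.05), 19 higher after TAC (0.151%) and 14 lower (0.111%). The median difference over all genes was 2.664e-04 on the log2 scale, where 1 is a factor of 2. At an unadjusted p under 0.05 there were 770 higher (6.12%) and 831 lower genes (6.60%). Both TAC hearts were above both sham hearts in 20.4% of all genes and below them in 21.4%. The same model passed 1603 genes (12.7%) for TAC in control hearts at 4 weeks, 6.36% of all genes higher and 6.37% lower, and 2424 genes (19.3%) for TAC in CKO hearts at 2 weeks, with 9.21% of all genes lower.

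The 33 calls depend on single hearts. Without heart 3 there were 88, of which 10 were among the 33 and 25 of the 76 higher ones were listed interferon or antigen presentation genes. Without heart 41 the medians of the interferon and antigen presentation lists were -0.32 and -0.47 log2 units, and the calls changed too. Without sham heart 4 there were 21, and 9 were shared. Without sham heart 8 none passed, with 938 genes at an unadjusted p under 0.05. In a fit of the 4 hearts alone 4 genes passed, none of them among the 33, and 1129 had an unadjusted p under 0.05. Ankrd1, Myl12a, Adprhl1 and Chd3 stayed past the threshold under 11 of 13 alternative settings; Haus8, Pdzd3, Hn1 and 2810405K02Rik under 10. For each of those 8 the fit of the 4 hearts alone and the one without heart 8 were among the settings where it was lost. With a pseudocount of 0.1 FPKM the low genes Cacng6, Ptpru and Tbx15 were among those no longer past the threshold (limma adjusted p = 0.0724, 0.0521 and 0.0587).

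**Figure D2:**
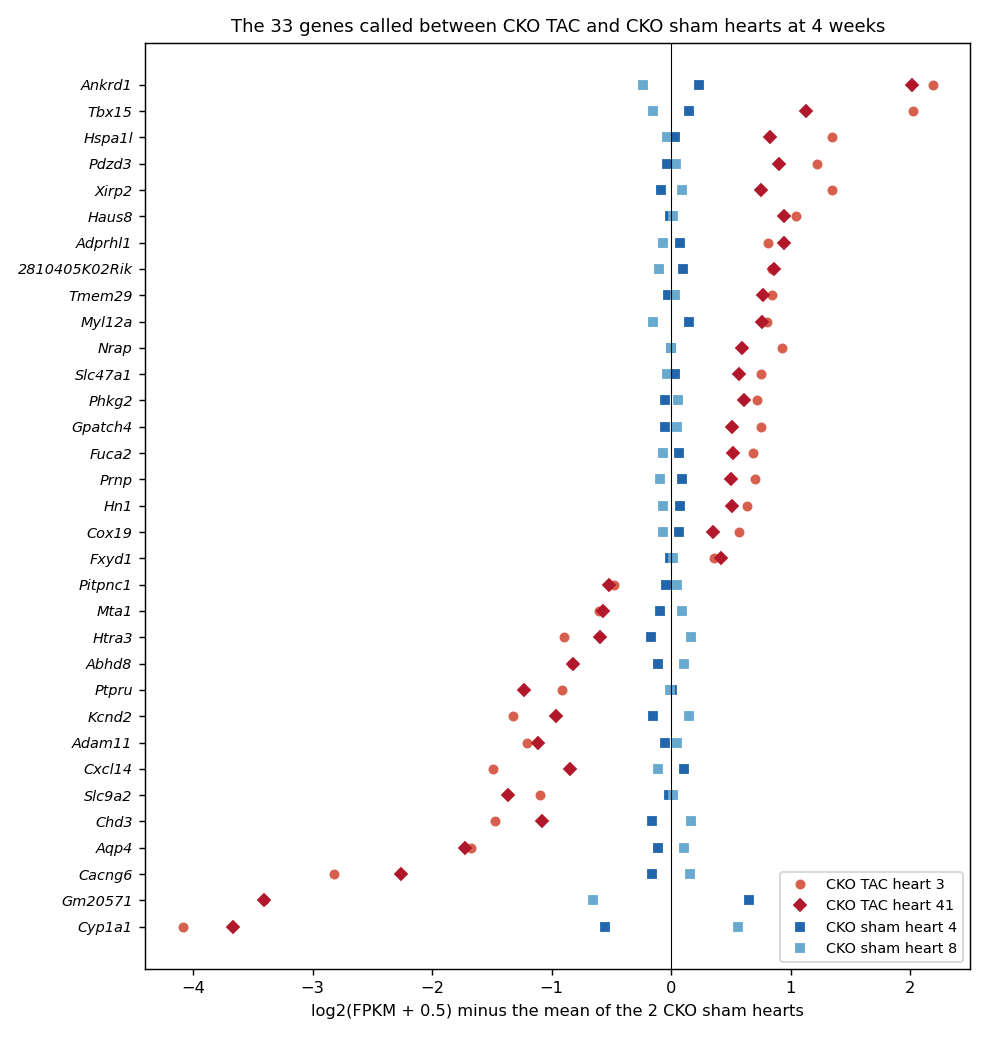
The 33 genes called between CKO TAC and CKO sham hearts at 4 weeks, ordered by log2 difference. Each point is a heart's log2(FPKM + 0.5) minus the mean of the 2 CKO sham hearts; TAC hearts 3 and 41 lie on the same side of 0 in every row, from 2.10 for Ankrd1 to -3.87 for Cyp1a1 as the mean difference.

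Among genes of the overload and foetal programme, the 3 genes Ankrd1, Xirp2 and Nrap rose. Ankrd1 (chromosome 19, 36111961 to 36120099, minus strand) encodes a titin-binding ankyrin-repeat protein and is a known YAP and TEAD target. It was 2518 and 2228 FPKM after TAC, against 649 and 468 FPKM after sham. That is a log2 difference of 2.10 ± 0.27 (SE, n = 2 each, limma adjusted p = 0.0142), the largest rise of the 19, and the 2 TAC hearts lay close together. Xirp2 (chromosome 2, 67446002 to 67526614, plus strand), an actin-binding protein of the intercalated disc, was 136 and 90.2 FPKM after TAC, against 50.1 and 56.6 FPKM after sham, a difference of 1.05 ± 0.18 (limma adjusted p = 0.037). Nrap (chromosome 19, 56320035 to 56390037, minus strand), an anchoring protein of growing myofibrils, was 250 and 199 FPKM after TAC, against 131 and 131 FPKM after sham, a difference of 0.76 ± 0.14 (limma adjusted p = 0.0453). The groups did not overlap in any of the 3 genes, and heart 3 was the higher TAC heart in each.

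These were 3 of 23 measured genes of the list that passed, all higher, where 0.151% of all genes were. The median difference of the list was 0.63. Both TAC hearts were above both sham hearts in 15 of the 23 and below in none, beside 20.4% and 21.4% of all genes. The classical foetal genes did not pass. Acta1, skeletal alpha-actin (chromosome 8, 123891769 to 123894751, minus strand), was 1759 and 1007 FPKM after TAC, against 132 and 229 FPKM after sham (2.93 ± 0.63, limma adjusted p = 0.0731). Nppa, the atrial natriuretic peptide, was 1041 and 454 FPKM after TAC, against 179 and 190 FPKM after sham (1.90 ± 0.55, limma adjusted p = 0.16). Nppb, the B-type peptide, was 1462 and 1247 FPKM after TAC, against 780 and 588 FPKM after sham (0.99 ± 0.39, limma adjusted p = 0.31). In all 3 genes the TAC hearts were above the sham hearts without overlap, and in Nppa the TAC hearts differed from each other by more than the sham hearts did. Myh7, the slow foetal myosin heavy chain, was 52.7 and 36.4 FPKM after TAC, against 149 and 17.3 FPKM after sham, so both TAC hearts lay between the sham hearts.

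In control hearts the differences of the list were larger, and the difference between genotypes did not pass for any gene. The list's median TAC difference was 0.63 in CKO hearts and 1.59 in control hearts at 4 weeks. In controls 18 of the 23 genes passed, all higher, where 6.36% of all genes were. Ankrd1 in control hearts was 5165 and 4700 FPKM after TAC, against 620 and 608 FPKM after sham. Nppa in control hearts was 3547 and 2761 FPKM after TAC, against 216 and 201 FPKM after sham. The difference of the 2 responses, CKO minus control, was -0.90 ± 0.39 for Ankrd1 (limma adjusted p = 0.36) and -2.01 ± 0.77 for Nppa (limma adjusted p = 0.30). For Acta1 it was -1.85 ± 0.89 (limma adjusted p = 0.43). None of the 23 genes passed for this difference, and at an unadjusted p under 0.05 there were 8 below and 0 above, where 6.55% and 5.74% of all genes were.

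**Figure D3:**
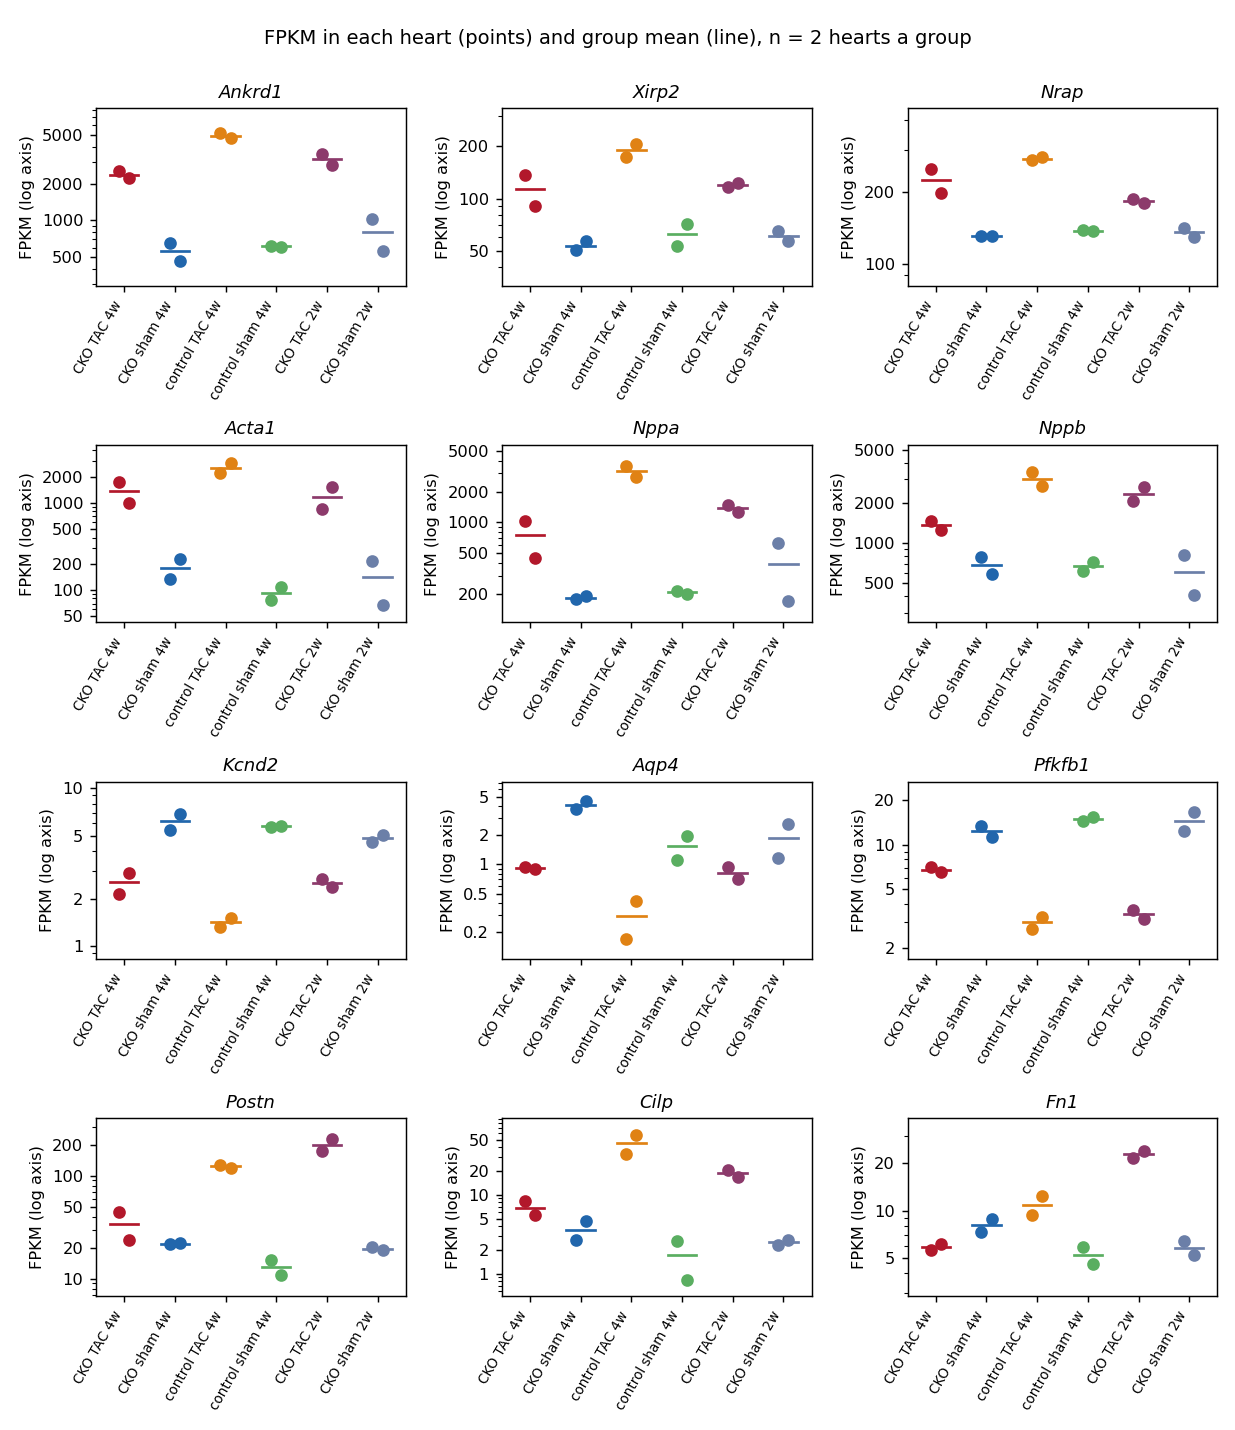
FPKM on a log axis of 12 genes in 6 groups of 2 hearts: points are hearts and lines are group means, with each TAC group left of its sham group. Ankrd1, Xirp2, Nrap and Acta1 are higher after TAC in all 3 pairs of groups, whereas Postn after TAC is 44.6 and 23.5 FPKM in CKO hearts at 4 weeks, below control hearts at 4 weeks (128 and 119 FPKM) and CKO hearts at 2 weeks (172 and 225 FPKM).

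The other rises were of mixed function. Adprhl1 (chromosome 8, 13221663 to 13254162, minus strand), a heart-enriched relative of ADP-ribosyl hydrolases, was 851 and 930 FPKM after TAC, against 508 and 460 FPKM after sham (0.88 ± 0.11, limma adjusted p = 0.0142). Myl12a, a regulatory light chain of non-muscle myosin, was 621 and 601 FPKM after TAC, against 395 and 320 FPKM after sham (0.78 ± 0.11, limma adjusted p = 0.0142). It overlaps its close copy Myl12b on the same strand, so the split of reads between them is uncertain. Myl12a also overlaps the sarcomere gene Myom1 on the other strand. Fxyd1, phospholemman, a regulator of the sodium pump, was 1036 and 1078 FPKM after TAC, against 800 and 814 FPKM after sham (0.39 ± 0.07, limma adjusted p = 0.0438). In each of these abundant genes the TAC hearts lay closer to each other than to the sham hearts.

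Of lower abundance, the T-box factor gene Tbx15 was 1.94 and 0.809 FPKM after TAC, against 0.166 and 0.0393 FPKM after sham (1.58 ± 0.30, limma adjusted p = 0.0453). The heat shock protein 70 relative Hspa1l was 10.6 and 7.27 FPKM after TAC, against 3.99 and 3.77 FPKM after sham. The scaffold gene Pdzd3 was 5.94 and 4.69 FPKM after TAC, against 2.20 and 2.34 FPKM after sham. Haus8, of the augmin complex of the spindle, was 25.6 and 23.9 FPKM after TAC, against 12.0 and 12.3 FPKM after sham, and overlaps Myo9b on the other strand. Log2 differences of these 3 were 1.09, 1.06 and 0.99 (SE 0.18, 0.15 and 0.14, limma adjusted p = 0.037, 0.0142 and 0.0142). The other rises ran from 0.46 to 0.85: the cation exporter gene Slc47a1, Phkg2 of phosphorylase kinase, Gpatch4, the fucosidase gene Fuca2, the prion protein gene Prnp, Hn1, the cytochrome oxidase assembly gene Cox19, Tmem29 and the clone-named 2810405K02Rik.

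Falls included repolarising and calcium channel genes. Kcnd2 (chromosome 6, 21215503 to 21729805, plus strand), a pore subunit of the transient outward potassium current, was 2.15 and 2.91 FPKM after TAC, against 5.48 and 6.87 FPKM after sham (-1.14 ± 0.18, limma adjusted p = 0.0354). Cacng6 (chromosome 7, 3424195 to 3435667, plus strand), a gamma subunit of voltage-gated calcium channels, was 0 and 0.236 FPKM after TAC, against 2.67 and 3.44 FPKM after sham (-2.54 ± 0.44, limma adjusted p = 0.037). These 2 were the members that passed among 24 ion channel genes, where 0.111% of all genes passed as lower. The median of that list was -0.24. Both TAC hearts were below both sham hearts in 15 of 24 and above in none, beside 21.4% and 20.4% of all genes.

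Further falls were the water channel gene Aqp4, at 0.943 and 0.893 FPKM after TAC, against 3.76 and 4.47 FPKM after sham (-1.70 ± 0.32, limma adjusted p = 0.0453), and the chemokine gene Cxcl14, at 8.15 and 13.0 FPKM after TAC, against 25.7 and 22.0 FPKM after sham (-1.17 ± 0.21, limma adjusted p = 0.0438). Chd3 and Mta1, both subunits of the NuRD chromatin remodelling complex, both fell. Chd3 was 2.16 and 2.99 FPKM after TAC, against 6.10 and 7.77 FPKM after sham (-1.28 ± 0.19, limma adjusted p = 0.0164). Mta1 was 12.7 and 13.0 FPKM after TAC, against 18.3 and 20.9 FPKM after sham (-0.59 ± 0.11, limma adjusted p = 0.0453).

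Cyp1a1, a cytochrome P450 known as a target of the aryl hydrocarbon receptor, had the largest fall, at 0 and 0.169 FPKM after TAC, against 5.27 and 12.0 FPKM after sham (-3.87 ± 0.73, limma adjusted p = 0.0453). In the 4 control hearts of 4 weeks it was between 0 and 2.00 FPKM, so among the 8 hearts of 4 weeks the CKO sham hearts were the high ones. The predicted gene Gm20571 was at 0 in both TAC hearts and 7.83 and 2.87 FPKM in the sham hearts, and it overlaps Kat14 on the same strand. It was at most 0.00661 FPKM in the control hearts of 4 weeks, and between 2.64 and 5.12 FPKM in hearts 12, 16 and 24 of other groups. The remaining falls, from -0.50 to -1.23, were the sodium-proton exchanger gene Slc9a2, Adam11, the receptor phosphatase gene Ptpru, Abhd8, the secreted protease gene Htra3 and the phosphatidylinositol transfer protein gene Pitpnc1.

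Among the genes just outside the threshold were Pfkfb1 (-0.81 ± 0.16, limma adjusted p = 0.0524), Saa3 (-2.21 ± 0.43, limma adjusted p = 0.0547) and Mybpc2, the fast skeletal myosin-binding protein (1.98 ± 0.39, limma adjusted p = 0.059). The calcium-binding Casq1 (1.67 ± 0.34) and Mybpc3, the cardiac myosin-binding protein (0.59 ± 0.12), followed, each with limma adjusted p = 0.0632. The small heat shock protein Cryab was 2902 and 3172 FPKM after TAC, against 1999 and 1955 FPKM after sham (0.62 ± 0.13, limma adjusted p = 0.0632). Fos was 13.0 and 36.1 FPKM after TAC, against 1.19 and 4.06 FPKM after sham (3.00 ± 0.65, limma adjusted p = 0.0745). Fos is an immediate early gene. In that list both TAC hearts were above both sham hearts in 13 of 23 and below in none. Over all genes these shares were 20.4% and 21.4%. The list's median was 0.63, and none passed, where 0.262% of all genes did. Leaving out heart 41 brought that median to 0.33 and leaving out heart 3 brought it to 0.96.

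For TAC in CKO hearts at 4 weeks no member of 3 extracellular matrix lists passed. Of 19 collagens, 36 matrix glycoproteins and proteoglycans, and 27 proteases, inhibitors and crosslinkers, none passed, which is near the 0.262% of all genes that did and so says little about these lists. Htra3, a secreted protease gene outside the lists, was among the 14 falls. At an unadjusted p under 0.05 there were 1 higher and 0 lower collagens, 7 higher and 8 lower glycoproteins and proteoglycans, and 2 higher and 3 lower genes of the third list, where 6.12% of all genes were higher and 6.60% lower. The list medians were -0.01, 0.02 and -0.01. Collagen I chain Col1a1 was 17.7 and 26.4 FPKM after TAC, against 15.8 and 25.4 FPKM after sham, so the groups overlapped. Postn, periostin, a mark of activated fibroblasts (chromosome 3, 54361109 to 54391037, plus strand), was 44.6 and 23.5 FPKM after TAC, against 21.5 and 22.3 FPKM after sham (0.56 ± 0.23, limma adjusted p = 0.34). Heart 3 held most of that difference. Fn1, fibronectin, was 5.64 and 6.12 FPKM after TAC, against 7.28 and 8.89 FPKM after sham (-0.42 ± 0.18, limma adjusted p = 0.34). Eln, elastin, was 10.6 and 13.5 FPKM after TAC, against 14.7 and 16.4 FPKM after sham (-0.36 ± 0.13, limma adjusted p = 0.25). For these last 2 genes both TAC hearts were below both sham hearts.

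The list medians were 0.71, 1.06 and 0.58 in control hearts at 4 weeks, and the difference between the 2 responses was tested. It passed in 94 genes (0.747% of those measured), 26 with the CKO response above (0.207%) and 68 below the control response (0.540%). Among the glycoproteins and proteoglycans 14 of 36 passed, all below, and among the collagens 3 of 19 (Col8a2, Col14a1 and Col5a2), all below. Activated fibroblast markers gave 7 of 15, all below, with a median response of 0.07 in CKO hearts and 2.00 in control hearts. Many of these lists share members, and they were drawn up with results of these data known.

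Periostin showed the contrast plainly. Postn in control hearts was 128 and 119 FPKM after TAC, against 15.2 and 10.9 FPKM after sham. The CKO response minus the control response was -2.65 ± 0.33 (limma adjusted p = 0.00700), and the 2 genotypes' TAC hearts did not overlap. Cilp, a matrix protein of activated fibroblasts (chromosome 9, 65265180 to 65280605, plus strand), was 8.23 and 5.48 FPKM after TAC, against 2.66 and 4.58 FPKM after sham, in CKO hearts. In control hearts it was 32.4 and 57.9 FPKM after TAC, against 2.63 and 0.840 FPKM after sham (difference of responses -3.57 ± 0.54, limma adjusted p = 0.00963). In both genes the CKO TAC hearts sat a little above their sham hearts and the control TAC hearts far above theirs.

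Cartilage oligomeric matrix protein, Comp, was 0.334 and 0.184 FPKM after TAC, against 0.630 and 0.416 FPKM after sham, in CKO hearts, and 16.0 and 11.6 FPKM after TAC, against 0.761 and 0.933 FPKM after sham, in control hearts (-3.82 ± 0.65, limma adjusted p = 0.0179). Both CKO TAC hearts were below both CKO sham hearts. The proteoglycan gene Fmod (-3.80), the osteopontin gene Spp1 (-3.71), the microfibril gene Mfap4 (-3.34), Angptl7 (-3.30) and the latent TGF-beta binding protein gene Ltbp2 (-2.47) were also below, with limma adjusted p between 0.00700 and 0.0243. Saa3, an acute-phase serum amyloid gene, was 0 FPKM in both CKO hearts after TAC and 2.60 and 1.23 FPKM after sham, and in control hearts it was 2.54 and 3.01 FPKM after TAC, against 0.746 and 0.427 FPKM after sham (-3.81 ± 0.61, limma adjusted p = 0.0124). Elastin, fibronectin and Tgfb3, a TGF-beta ligand, were below at -1.41 ± 0.18 for Eln, -1.40 ± 0.25 for Fn1 and -1.25 ± 0.18 for Tgfb3 (limma adjusted p = 0.00700, 0.0209 and 0.00788).

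All 26 genes with the CKO response above fell in control hearts. Ces1d, a lipase of lipid droplets, was 58.1 and 57.9 FPKM after TAC, against 75.1 and 102 FPKM after sham, in CKO hearts. In control hearts it was 7.79 and 14.4 FPKM after TAC, against 79.0 and 138 FPKM after sham (2.65 ± 0.40, limma adjusted p = 0.00919). Penk, proenkephalin, stood at 2.39 and the fibulin gene Efemp1 at 2.16. The chloride channel gene Clcn1 (1.69), the skeletal calcium channel gene Cacna1s (1.68), the sodium channel gene Scn4a (1.62), Armc2 (1.86) and the semaphorin receptor gene Plxnb1 (1.33) followed, with limma adjusted p between 0.00799 and 0.0375 for these 7 genes. Pfkfb1, a regulator of glycolysis, was 7.06 and 6.56 FPKM after TAC, against 13.4 and 11.2 FPKM after sham, in CKO hearts, and 2.71 and 3.28 FPKM after TAC, against 14.5 and 15.5 FPKM after sham, in control hearts (1.35 ± 0.22, limma adjusted p = 0.0146). It was lower after TAC in both genotypes, and by less in CKO hearts.

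Of the 33 genes, 1 was called in opposite directions in the 2 genotypes: Tmem29. It was 3.74 and 3.53 FPKM after TAC, against 1.82 and 1.92 FPKM after sham, in CKO hearts, and 1.54 and 2.05 FPKM after TAC, against 3.06 and 3.30 FPKM after sham, in control hearts. The difference of responses was 1.50 ± 0.21 (limma adjusted p = 0.00769).

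**Figure D4:**
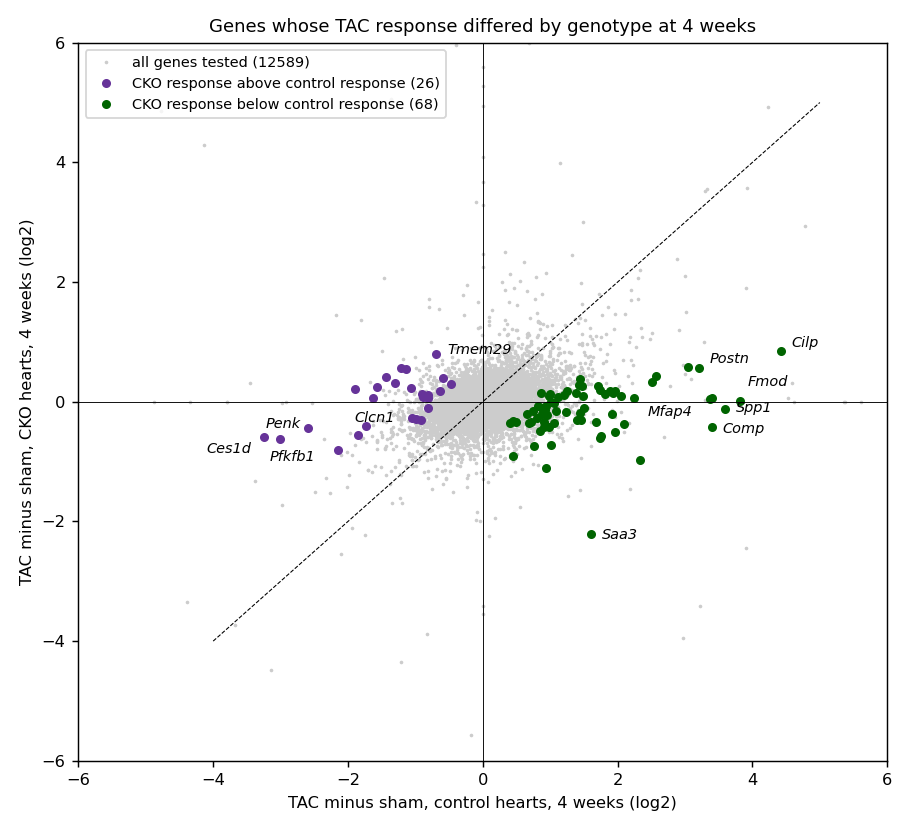
TAC-minus-sham differences at 4 weeks in CKO hearts (vertical) against control hearts (horizontal), both on the log2 scale; the dashed line marks equal responses, and 9 genes lie outside the axes. The 68 genes with the CKO response below lie right of 0 and mostly near 0 vertically (Comp, Spp1, Postn; Saa3 at -2.21 is the lowest), and the 26 with it above lie left of 0 (Ces1d, Penk, Pfkfb1).

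These counts moved with the hearts included. A fit of the 8 hearts alone passed none, with 1421 genes at an unadjusted p under 0.05, and leaving out a single heart gave 20 (without CKO sham heart 8) to 121 genes (without CKO TAC heart 3). It was 24, 38 and 40 without control hearts 7, 2 and 1, 41 without CKO heart 41 and 54 without CKO heart 4. Postn, Mfap4, Eln and Tgfb3 stayed past the threshold under 16 of 17 settings, all but the fit of the 8 hearts alone. Ltbp2 and Spp1 did so under 7 of 16.

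Although fewer genes passed in CKO hearts, those that did were largely genes that also passed in control hearts. The 2 comparisons share no heart, but each gene's spread comes from the same model, so their calls are not independent. Of the 19 rises, 16 passed in the same direction in control hearts at 4 weeks (84.2% of the 19 and 2.00% of the 801 that rose there), and of the 14 falls, 10 did (71.4% of the 14 and 1.25% of the 802). The exceptions were Fxyd1, Slc47a1 and Tmem29 among rises and Chd3, Cyp1a1, Gm20571 and Mta1 among falls. Taken the other way, the 801 genes that rose in control hearts had a median difference of 0.72 there and 0.17 in CKO hearts, with 75.8% of them above 0. The 802 that fell had a median of -0.63 there and -0.21 in CKO hearts, with 83.0% below 0. With TAC in CKO hearts at 2 weeks the overlap was 10 of 19 rises and 3 of 14 falls (52.6% and 21.4% of them, 0.791% of 1265 and 0.259% of 1159), and 1 gene, Fxyd1, was called in opposite directions. The 1265 genes that rose at 2 weeks had a median of 0.80 there and -0.02 at 4 weeks.

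The response of CKO hearts at 4 weeks was set against that at 2 weeks, with the difference itself tested. It passed in 823 genes (6.54%), 341 with the response at 4 weeks above (2.71%) and 482 below (3.83%). Leaving out single hearts gave 55 (without TAC heart 31 of 2 weeks) to 1113 genes (without TAC heart 13), with 109, 115, 330 and 530 without hearts 15, 8, 3 and 4. The count came to 11 in a fit of the 8 hearts alone, where 2743 genes had an unadjusted p under 0.05. It was 229 without the hearts with high Myl7, which leaves sham heart 15 alone at 2 weeks. The genes below were led by cell division. Of 33 measured division genes 18 passed, all below. The median TAC difference was 0.08 at 4 weeks and 1.99 at 2 weeks.

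Mki67, the proliferation mark Ki-67, was 0.481 and 1.28 FPKM after TAC, against 0.836 and 0.909 FPKM after sham, at 4 weeks. At 2 weeks it was 5.85 and 12.1 FPKM after TAC, against 0.963 and 0.989 FPKM after sham (4 minus 2 weeks -2.65 ± 0.46, limma adjusted p = 0.0107). Top2a, topoisomerase II of dividing cells, was 0.385 and 2.04 FPKM after TAC, against 1.00 and 0.948 FPKM after sham, at 4 weeks. At 2 weeks it was 7.01 and 16.4 FPKM after TAC, against 0.737 and 0.960 FPKM after sham (-3.05 ± 0.66, limma adjusted p = 0.0209). At 4 weeks the TAC hearts lay on either side of the sham hearts, with heart 41 the higher, and at 2 weeks both TAC hearts were far above. Ube2c (-3.34), Ccnb2 (-3.26), Fam64a (-3.02), Birc5 (-2.96), Mxd3 (-2.95), Cep55 (-2.91) and Kif23 (-2.69), all of them genes of mitosis or cell proliferation, were also below, with limma adjusted p between 0.00202 and 0.0332.

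Matrix genes were the other large group below. Of 19 collagens 13 passed, with 13 of 36 glycoproteins and proteoglycans and 9 of 27 proteases, inhibitors and crosslinkers. All had a lower response at 4 weeks, where 3.83% of all genes did. Fn1 was 21.7 and 24.1 FPKM after TAC, against 6.43 and 5.21 FPKM after sham, in CKO hearts at 2 weeks, and the 4-minus-2-weeks difference was -2.31 ± 0.25 (limma adjusted p = 7.639e-04). Eln was 38.7 and 35.3 FPKM after TAC, against 10.8 and 11.5 FPKM after sham, at 2 weeks (-2.04 ± 0.18, limma adjusted p = 2.994e-04). These 2 genes stayed past the threshold under all 17 alternative settings. Postn was 172 and 225 FPKM after TAC, against 20.2 and 18.8 FPKM after sham, at 2 weeks (-2.75 ± 0.33, limma adjusted p = 0.00202). Different mice were examined at the 2 times.

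**Figure D5:**
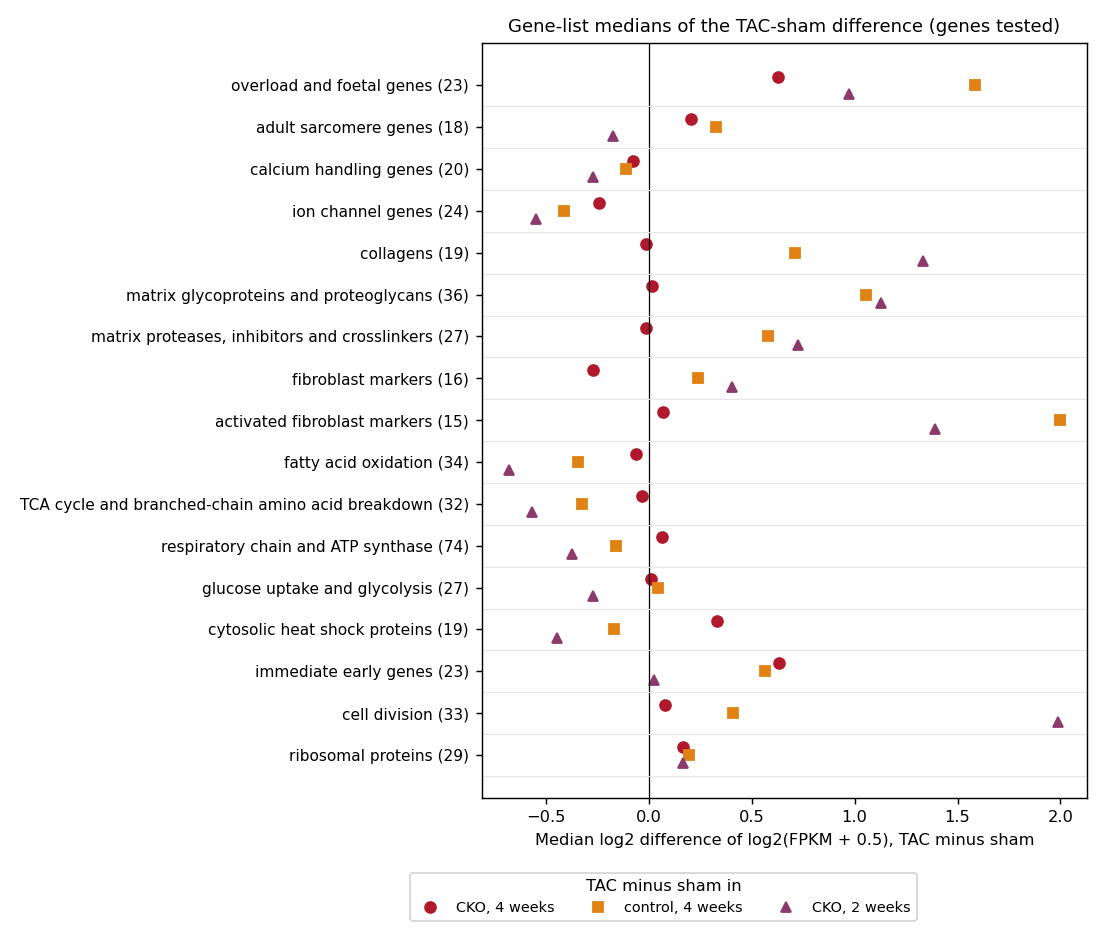
Median TAC-minus-sham log2 difference of 17 gene lists in CKO hearts at 4 weeks (circles), control hearts at 4 weeks (squares) and CKO hearts at 2 weeks (triangles), with the number of genes tested in brackets. In CKO hearts at 4 weeks the matrix and metabolic lists lie near 0 (collagens -0.01, fatty acid oxidation -0.06) and the overload list at 0.63, whereas in the other 2 comparisons collagens are at 0.71 and 1.33.

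Energy metabolism genes had small differences in CKO hearts at 4 weeks. None of 34 fatty acid oxidation genes, 32 genes of the TCA cycle and branched-chain amino acid breakdown or 74 genes of the respiratory chain passed, with medians of -0.06, -0.03 and 0.06; the last was -0.04 after quantile normalization. With 0.262% of all genes called, none called says little about these lists. At an unadjusted p under 0.05 there were 0, 0 and 4 higher and 1, 1 and 1 lower genes, where 6.12% of all genes were higher and 6.60% lower. The medians were -0.34, -0.33 and -0.16 in control hearts at 4 weeks and -0.68, -0.57 and -0.37 in CKO hearts at 2 weeks. Ech1, a peroxisomal and mitochondrial isomerase of fatty acid oxidation, was 2090 and 2027 FPKM after TAC, against 2221 and 2193 FPKM after sham (-0.10 ± 0.11, limma adjusted p = 0.74). Hadha, the trifunctional protein subunit, was 559 and 568 FPKM after TAC, against 548 and 571 FPKM after sham (0.01 ± 0.13, limma adjusted p = 0.99). The TAC hearts of Hadha lay inside the range of the sham hearts.

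For the difference between 4 and 2 weeks 13 of 34 fatty acid oxidation genes passed, 14 of 32 TCA and amino acid genes and 21 of 74 respiratory chain genes. All had the response at 4 weeks above, where 2.71% of all genes did. Ech1 was 1290 and 1186 FPKM after TAC, against 2283 and 2739 FPKM after sham, at 2 weeks (4 minus 2 weeks 0.91 ± 0.16, limma adjusted p = 0.0103). Hadha gave 0.93 ± 0.18 (limma adjusted p = 0.0151) and Sdha, of respiratory complex II, 0.83 ± 0.17 (limma adjusted p = 0.0181). After quantile normalization the difference was 0.49 for Ech1 (limma adjusted p = 0.0407), and for Sdha it was 0.46 and did not pass (limma adjusted p = 0.0549). For the difference between genotypes no gene of the 3 lists passed, where 0.747% of all genes did, so that says little about these lists. At an unadjusted limma p under 0.05 there were 5, 10 and 10 genes with the CKO response above and none below. Over all genes these shares were 5.74% and 6.55%. Ech1 was 0.69 ± 0.16 (limma adjusted p = 0.0676). Ndufs5, of complex I, was 13.7 FPKM in heart 3 and 247 FPKM in heart 41, against 220 and 247 FPKM in the sham hearts, so that a single heart carried its difference.

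Of 18 sarcomere genes 2 and of 20 calcium handling genes 3 had a higher response at 4 than at 2 weeks, and none a lower one. Over all genes 2.71% had a higher and 3.83% a lower response. Mybpc3 was 1580 and 1517 FPKM after TAC, against 1001 and 1057 FPKM after sham, at 4 weeks, and its response was 0.73 ± 0.17 above that at 2 weeks (limma adjusted p = 0.026). Atp2a2, the SERCA2 pump that returns calcium to its store, was 3111 and 3087 FPKM after TAC, against 3775 and 3879 FPKM after sham, at 4 weeks (-0.30 ± 0.10, limma adjusted p = 0.21). At 2 weeks it was 2211 and 1855 FPKM after TAC, against 3460 and 3869 FPKM after sham (4 minus 2 weeks 0.55 ± 0.14, limma adjusted p = 0.0341). It was lower after TAC at both times, and the difference of responses passed under 6 of 17 settings only. After quantile normalization it was 0.094 for Atp2a2 (limma adjusted p = 0.66) and 0.45 for Mybpc3 (limma adjusted p = 0.10), neither past the threshold. Hrc, a calcium-binding protein of the same store, overlapped between the groups at 4 weeks (701 and 793 FPKM after TAC, against 724 and 704 FPKM after sham), and its response was 1.11 ± 0.21 above that at 2 weeks (limma adjusted p = 0.0127). Fxyd1 rose at 4 weeks and fell at 2 weeks (775 and 783 FPKM after TAC, against 953 and 1017 FPKM after sham), a difference of 0.73 ± 0.10 (limma adjusted p = 0.00430). Its rise at 4 weeks passed under 4 of 13 settings only, and after quantile normalization the difference of responses for Fxyd1 was 0.34 and did not pass (limma adjusted p = 0.0572).

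Cytosolic heat shock genes had a median of 0.33 in CKO hearts at 4 weeks, and none passed, where 0.262% of all genes did. Both TAC hearts were above both sham hearts in 9 of 19 and below in none, beside 20.4% and 21.4% of all genes. The list's median was -0.17 in control hearts at 4 weeks and -0.45 in CKO hearts at 2 weeks. For the difference between 4 and 2 weeks 5 of 19 passed, all above, where 2.71% of all genes were. Hsph1, a co-chaperone of heat shock protein 70, was 32.9 and 37.7 FPKM after TAC, against 24.7 and 23.8 FPKM after sham, at 4 weeks, and 15.0 and 14.1 FPKM after TAC, against 32.3 and 44.8 FPKM after sham, at 2 weeks (1.88 ± 0.40, limma adjusted p = 0.0199). Cryab, whose levels at 4 weeks are given above, gave 1.06 ± 0.18 (limma adjusted p = 0.00930), and 0.68 after quantile normalization, which did not pass (limma adjusted p = 0.0627). For Hsph1 the TAC hearts were above sham at 4 weeks and below it at 2 weeks. Fos had a 4-minus-2-weeks difference of 3.35 ± 0.92 (limma adjusted p = 0.0448).

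Also above at 4 weeks were Penk (1.88), Cacna1s (1.80), Aox1 (1.43), Hist1h4h (1.41), Armc2 (1.37), Gnb3 (1.34), Scn4a (1.28), Rhd (1.26) and Pfkfb1 (1.13), with limma adjusted p between 0.0140 and 0.0363. Saa3 (-2.50 ± 0.61, limma adjusted p = 0.0296) and Tgfb3 (-1.15 ± 0.18, limma adjusted p = 0.00740) were below. Chd3, which fell at 4 weeks, was 5.13 and 5.14 FPKM after TAC, against 3.76 and 4.23 FPKM after sham, at 2 weeks (-1.60 ± 0.27, limma adjusted p = 0.00930). The differences by genotype and by time and the TAC comparison itself share CKO hearts 3, 41, 4 and 8, so their calls are not independent of each other.

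Of 20 YAP and TEAD target genes 1 passed, Ankrd1, with a list median of -0.07. The known targets Ctgf and Cyr61 did not pass: Ctgf was 85.9 and 46.2 FPKM after TAC, against 23.7 and 36.8 FPKM after sham (1.08 ± 0.40, limma adjusted p = 0.28), and Cyr61 was 73.9 and 85.5 FPKM after TAC, against 29.9 and 45.5 FPKM after sham (1.10 ± 0.46, limma adjusted p = 0.34). In both the TAC hearts were above the sham hearts. None of 20 genes of YAP, TEAD factors and the Hippo kinases passed, which is near the 0.262% of all genes that did and so says little. Yap1 was 32.4 and 29.8 FPKM after TAC, against 31.6 and 35.5 FPKM after sham. Of the 14 windows that matched among the 19 rises, 6 held CATTCC on either strand (those of Ankrd1, Haus8, Hspa1l, Myl12a, Prnp and Tmem29), and of 9 matched among the 14 falls, 2 did, beside 14.8% of 8944 measured genes with a window.

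None of 22 Wnt ligand and receptor genes passed. With 0.262% of all genes called, that says little about the list. Both TAC hearts were below both sham hearts in 10 of the 22, with a median of -0.20. Over all genes both TAC hearts were below in 21.4% and above in 20.4%, and the counts of the next lists stand beside these shares. Resident fibroblast markers had a median of -0.27, with both TAC hearts below in 8 of 16 and above in none. Dpt, dermatopontin, was 72.3 and 66.7 FPKM after TAC, against 104 and 97.2 FPKM after sham (-0.53 ± 0.12, limma adjusted p = 0.0836). The mast cell protease gene Tpsb2 was 0.506 and 0.463 FPKM after TAC, against 1.91 and 1.50 FPKM after sham (-1.16 ± 0.26, limma adjusted p = 0.0804). Of 7 measured mast cell markers, both TAC hearts were below in 3 and above in 1. The summed level of 10 such markers was 8.94 and 13.8 FPKM after TAC, against 12.9 and 13.8 FPKM after sham. Lipid regulators gave both TAC hearts below in 14 of 22 and above in none; Ucp2 was 12.0 and 16.0 FPKM after TAC, against 29.3 and 21.8 FPKM after sham (-0.84 ± 0.21, limma adjusted p = 0.0989). For ribosomal proteins both TAC hearts were above both sham hearts in 18 of 29, with a median of 0.16, and none passed.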

How the data were processed

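Poly(A) RNA of mouse hearts was sequenced from 20 libraries, and the labels do not say which parts of the heart were taken. Per the labels' protocols, the miRNeasy Mini kit gave the RNA and the TruSeq Stranded mRNA kit the libraries. The authors deposited gene-level FPKM values for each heart. The submitters' processing notes name TopHat2 2.1.1, Bowtie2, Cuffdiff 2.2.1 and mm10. The sources used here do not say whether counting used strand. Absolute depth is not given by FPKM, and the relative depth was read from steps between low values, of which 96.3% of 16765 lay within 5% of whole multiples.

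Of 23284 genes, the 12589 averaging 0.5 FPKM or more across all 20 hearts were tested. One linear model with 10 group means was fitted to log2(FPKM + 0.5) with limma 3.58.1 in R 4.3.3 (10 residual degrees of freedom, prior variance with a trend), two-sided, with Benjamini-Hochberg adjustment over all 12589 genes and a threshold of 0.05. The pseudocount understates changes of low genes. The fit was tested on simulated data. Differences of responses were contrasts in the same model. Errors are standard errors of the model, with 2 hearts in each group. Alternatives were the pseudocount, the filter, the scaling, the hearts in the fit, the prior, and leaving out each heart in turn or every heart in which Myl7 reached 10 FPKM.

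The hearts, gene lists and named genes were chosen with earlier results of these data known. Named genes were up to 15 called genes a direction with the largest differences, up to 3 members of each list with the smallest p, the 10 largest differences of responses a direction, and a fixed set that includes Wnt5a and Ankrd1. All 33 called genes are named, and the genes beyond the rule were chosen after their values were seen. Promoter sequences are RefSeq's for GRCm38.p6 and gene positions are GENCODE's for mm10. Of the 33 called genes, 14 of 19 higher and 9 of 14 lower ones matched a promoter.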

Additional observations from a re-analysis of the deposited data

Results flagged for a closer look

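Named genes whose response to TAC differed between genotypes at 4 weeks, by the limma contrast of the responses (CKO minus control, log2), are listed here. The CKO response was below that of control hearts for Comp (-3.82), Saa3 (-3.81), Fmod (-3.80), Spp1 (-3.71), Cilp (-3.57), Mfap4 (-3.34), Angptl7 (-3.30), Postn (-2.65), Ltbp2 (-2.47), Col8a2 (-2.47), Col14a1 (-1.63), Eln (-1.41), Fn1 (-1.40), Tgfb3 (-1.25) and Col5a2 (-1.07). Matrix and fibroblast genes make up most of these. The CKO response was above that of control hearts for Ces1d (2.65), Penk (2.39), Efemp1 (2.16), Armc2 (1.86), Clcn1 (1.69), Cacna1s (1.68), Scn4a (1.62), Tmem29 (1.50), Pfkfb1 (1.35) and Plxnb1 (1.33).

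Named genes whose response in CKO hearts differed between the times (4 minus 2 weeks, log2) were tested the same way. The response at 4 weeks was below that at 2 weeks for Ube2c (-3.34), Ccnb2 (-3.26), Top2a (-3.05), Fam64a (-3.02), Birc5 (-2.96), Mxd3 (-2.95), Cep55 (-2.91), Postn (-2.75), Kif23 (-2.69), Mki67 (-2.65), Saa3 (-2.50), Fn1 (-2.31), Eln (-2.04), Chd3 (-1.60) and Tgfb3 (-1.15). Genes of cell division and of the matrix are the most numerous among them. The response at 4 weeks was above that at 2 weeks for Fos (3.35), Penk (1.88), Hsph1 (1.88), Cacna1s (1.80), Aox1 (1.43), Hist1h4h (1.41), Armc2 (1.37), Gnb3 (1.34), Scn4a (1.28), Rhd (1.26), Pfkfb1 (1.13), Hrc (1.11), Cryab (1.06), Hadha (0.93), Ech1 (0.91), Sdha (0.83), Mybpc3 (0.73), Fxyd1 (0.73) and Atp2a2 (0.55). With 2 hearts in each group no test for a single distant heart was made.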

How the results depend on the processing

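No paired analysis was possible because each replicate number occurs once in the series. The 33 calls between TAC and sham in CKO hearts at 4 weeks became 11 with no filter on low values and 4 in a fit of the compared groups alone. Leaving out single hearts gave 0 (without sham heart 8) to 88 (without TAC heart 3). For CKO minus control 94 genes became 0 in a fit of the compared groups alone and 29 without the hearts with high Myl7, and leaving out single hearts gave 20 to 121. For 4 minus 2 weeks 823 became 11 and 229 under the same settings, and 55 to 1113. TAC in control hearts called 1603 genes, 355 in a fit of the compared groups alone and 660 to 1053 without single hearts. TAC in CKO hearts at 2 weeks called 2424, then 15, and 465 to 2208. In a group left with 1 heart, that heart was assumed to vary like the others. None of the hearts compared for CKO minus control had high Myl7, and the median difference over all genes stayed at 0.00667 without the hearts that did. Fitting fewer hearts leaves fewer degrees of freedom, and for the other settings the cause was not tested.

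Signs turned for genes that were not called. Leaving out single hearts gave log2 differences of -0.11 (without heart 41) to 2.64 for B2m, -0.62 (without heart 41) to 5.29 for Igtp, -0.23 (without heart 4; -0.17 without heart 41) to 0.44 for Col1a1, -0.48 to 0.38 (without heart 3) for Mki67 and -1.76 to 1.31 (without heart 4; 0.042 without heart 41) for Myh7. Hadha, at 0.01 in the full fit, was between -0.020 (without heart 4; -0.00203 without heart 41) and 0.040, and -0.062 after quantile normalization. The median of the interferon list was 0.97, and -0.32 without heart 41 and 2.15 without heart 3. That of antigen presentation was 0.83, and -0.47 and 2.25. That of cell division was 0.08, and -0.17 without heart 41.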

Other observations

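Heart 41 was the highest of the 20 hearts for 431 of all 12589 genes and the lowest for 360, and heart 3 for 681 and 599. Sham heart 8 was the highest for 786 and the lowest for 756, and sham heart 4 for 287 and 281. Heart 41 thus stood apart in a few coherent gene lists and not in its number of extreme genes. Irgm1, another interferon-inducible GTPase, was 218 FPKM in heart 41, against 11.6 to 23.1 FPKM in the other 19 hearts. The distance varied within the interferon-response list. Isg15 was 40.7 FPKM in heart 41, against 6.38 to 33.5 FPKM in the others, and Ifit1 was 17.8 FPKM, against 1.87 to 7.68 FPKM.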
